A study of Mus musculus with 6 samples.

Results

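The unfolded-protein and ATF4 stress response was examined in the human PAAD line CFPAC-1 through 10 genes of the 30543 in the deposited table of read counts. The members were taken by Ensembl identifier from a fixed list, and all 10 were found and passed the filter on low counts. They are HSPA5 (ENSG00000044574), HERPUD1 (ENSG00000051108), XBP1 (ENSG00000100219), ATF4 (ENSG00000128272), DDIT3 (ENSG00000175197), DDIT4 (ENSG00000168209), TRIB3 (ENSG00000101255), ASNS (ENSG00000070669), CHAC1 (ENSG00000128965) and SESN2 (ENSG00000130766). Transfection was with a siRNA against the keratin gene KRT7 in 3 libraries, called si-KRT7, and with a control siRNA in 3 others, called si-Control, and polyadenylated RNA was sequenced on the DNBSEQ platform. A siRNA transfection is shared by both groups, so the comparison shows what differed between the siRNAs and not what transfection itself did to stress genes. The study asked how lowering KRT7 changes the transcriptome of these cells. Time after transfection and siRNA dose are not given in the sources used here, nor is it stated which siRNA against KRT7 was sequenced.

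The endoplasmic reticulum (ER) folds secreted and membrane proteins, and misfolded protein there activates the sensors IRE1, PERK and ATF6, which raise chaperones and degradation factors. PERK also phosphorylates eIF2alpha, which slows translation in general but favors translation of ATF4, a transcription factor that other stresses such as amino acid shortage reach through related kinases. ATF4 then induces DDIT3, TRIB3, CHAC1, ASNS, DDIT4 and SESN2. Part of this regulation lies outside what gene counts record: IRE1 acts on XBP1 by splicing its mRNA, and ATF4 is controlled largely at translation. The exocrine pancreas is known for a high secretory load and a strong dependence on this response.

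Library totals lay between 28208896 and 36315802 counts. The si-KRT7 libraries did not form an even group. On log2 CPM, the scale of counts relative to the library total corrected with TMM factors, si-KRT7 replicates 1 and 3 had a Pearson correlation of 0.992 across genes, as the si-Control libraries had among themselves (0.991 to 0.992), whereas si-KRT7 replicate 2 had 0.982 with both, below the correlations of 0.983 to 0.986 between libraries of different groups. The fitted changes and the counts of members past the adjusted p or without overlap are therefore given with and without that library. It was singled out after these correlations were seen, so every p-value without it is conditional on that choice. KRT7 itself was not looked up, because the table pairs no identifier with a symbol. The identifier with the largest decrease among genes with an adjusted p under 0.05 and a mean of at least 50 counts, ENSG00000135480, was at 12.2% of its si-Control mean in si-KRT7 replicate 1, at 18.3% in replicate 2 and at 12.6% in replicate 3.

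Of the 10 stress-response genes, 1 passed an adjusted p under 0.05 in edgeR's quasi-likelihood test with all 6 libraries, against 2.07% of the 15736 genes tested, and this was HSPA5, which fell. Over all genes, 1.35% passed as lower and 0.712% as higher. None passed the second limit of an absolute log2 fold change over 1 as well, which 0.292% of all genes did. At an unadjusted p under 0.05 the test gave 4 members, HSPA5, HERPUD1, ASNS and CHAC1, all lower in si-KRT7 cells, against 18.6% of all genes in either direction and 9.08% lower. The median log2 fold change was -0.15 over the members and 0.01 over all genes tested. No decrease can be assigned to fewer transcripts per cell or to fewer expressing cells, which bulk RNA cannot tell apart. The labels do not say whether the libraries of a group came from separate transfections, so the p-values measure only the spread between these libraries.

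**Figure D1:**
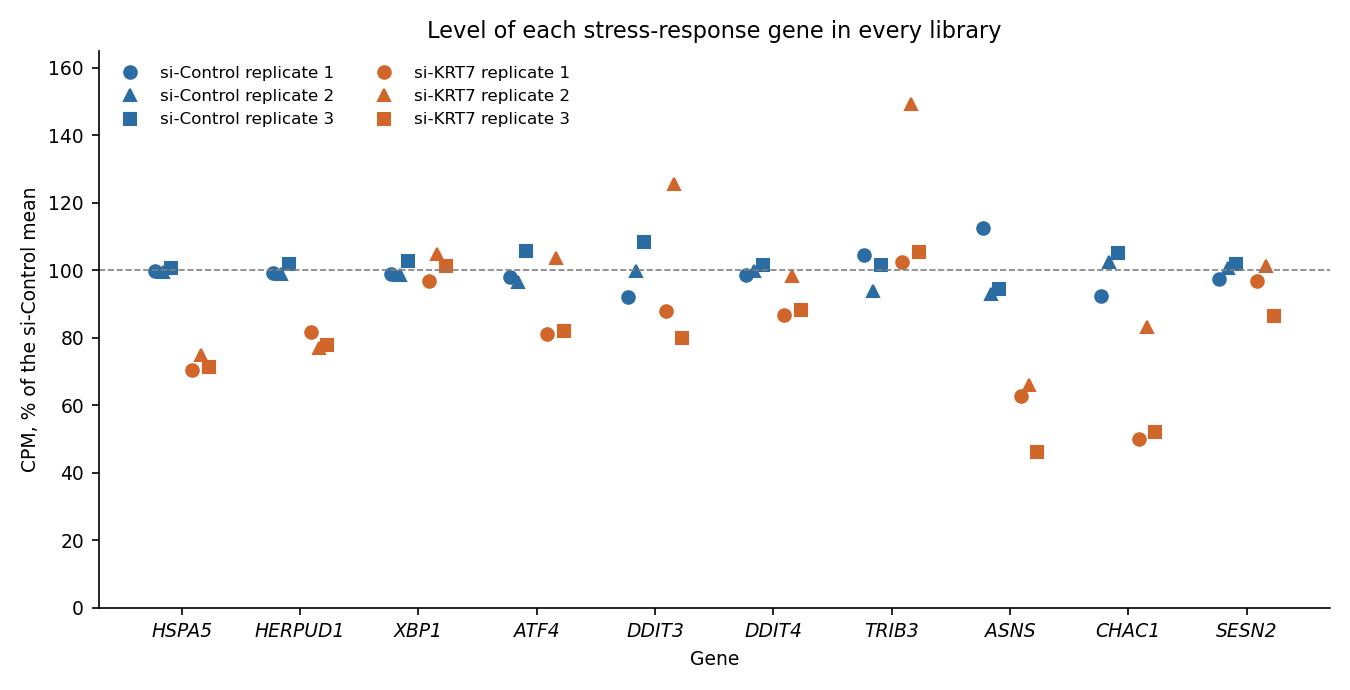
CPM of each of the 10 genes in every library, as a percentage of that gene's si-Control mean (dashed line at 100); blue marks are si-Control and orange marks si-KRT7 libraries, with the shape giving the replicate. HSPA5 and HERPUD1 lay below 82% in all 3 si-KRT7 libraries, whereas for ATF4, DDIT3 and TRIB3 the orange triangle of si-KRT7 replicate 2 lay above 100% and apart from replicates 1 and 3.

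HSPA5 encodes BiP, the main HSP70 chaperone of the ER lumen and the protein that holds the ER stress sensors inactive. Its level was 2353, 2343 and 2373 CPM in si-Control replicates 1, 2 and 3, and 1661, 1763 and 1683 CPM in si-KRT7 replicates 1, 2 and 3. The si-KRT7 libraries all lay below the si-Control libraries, and replicate 2 was close to the others, at 74.8% of the si-Control mean against 70.5% and 71.4%. The group means were 2356 ± 15.3 CPM and 1702 ± 54.1 CPM (SD, n = 3 each). This was a log2 fold change of -0.47 (standard error, SE, 0.06, adjusted p = 0.0106 in edgeR's quasi-likelihood test), and the gene ranked 65 by p among those tested. HSPA5 made up 0.170% to 0.234% of each library's counts, so counting error, at 0.386% of the mean, was small beside the difference. An exact permutation test (two-sided) of log2 CPM returned p = 0.1, which is as low as 3 libraries in each group can reach. The adjusted p was at or above the limit in edgeR without si-Control replicate 1 (0.116), 2 (0.116) or 3 (0.116) and without si-KRT7 replicate 3 (0.0718). Over all genes tested, only 6, 6, 10 and 36 passed in those fits. The log2 fold change lay between -0.50 and -0.45 in every fit that left out a library. It was -0.50 without si-KRT7 replicate 2, with an adjusted p of 8.73e-13 in edgeR.

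HERPUD1 encodes an ER membrane protein of the degradation machinery that moves misfolded proteins to the proteasome. It stood at 99.1, 98.9 and 101.6 CPM in si-Control replicates 1, 2 and 3, and at 81.7, 76.8 and 77.8 CPM in those of si-KRT7. The groups did not overlap, and si-KRT7 replicate 2 was the lowest library of all 6. HERPUD1 had a log2 fold change of -0.34 (SE 0.07, 95% interval -0.51 to -0.17), with an adjusted p of 0.0597 in edgeR, just over the limit. Without si-KRT7 replicate 2 it was -0.33, with an adjusted p of 2.06e-06 in edgeR. The point estimate thus hardly moved, while its SE was 0.04 against 0.07. The biological coefficient of variation estimated in common for all genes was 0.0485 against 0.130, which is not the spread of HERPUD1 itself. The coefficient of variation of HERPUD1 was 3.44% between si-KRT7 replicates 1 and 3 and 3.29% among all 3.

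XBP1 encodes the transcription factor that IRE1 activates by splicing, and it drives chaperone, lipid and secretory genes. Its values were 134.7, 134.2 and 140.0 CPM in the si-Control libraries and 132.0, 142.9 and 138.2 CPM in the si-KRT7 libraries, so the groups overlapped. The fold was 1.01, with a 95% interval from 0.901 to 1.13 (adjusted p = 0.940 in edgeR). The interval leaves out a change of the size seen in HSPA5, which was 0.722-fold. Spliced and unspliced XBP1 mRNA are counted together here.

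**Figure D2:**
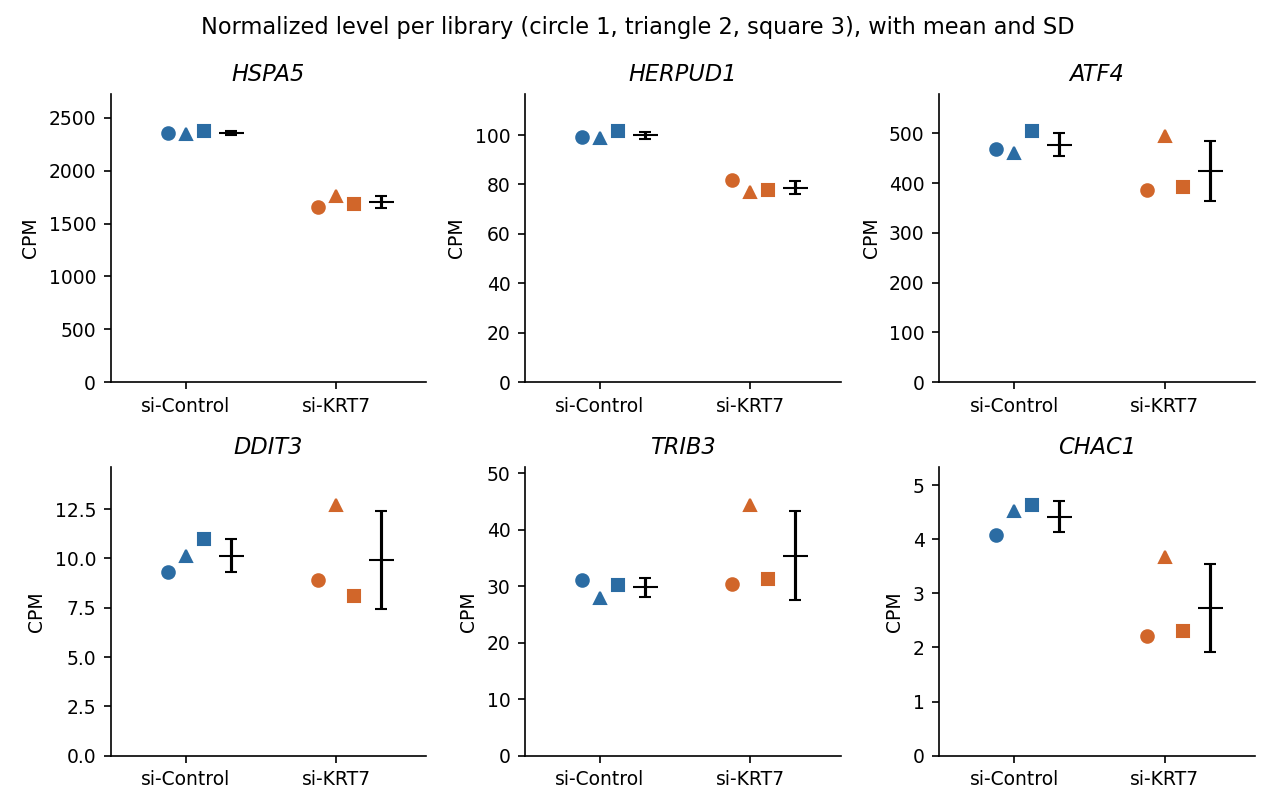
CPM of 6 of the genes in each library by group, with the mean and SD of 3 libraries beside the points; each vertical axis starts at 0. The si-KRT7 marks of HSPA5 and HERPUD1 sit close together below si-Control, while those of ATF4, DDIT3, TRIB3 and CHAC1 spread, with replicate 2 (triangle) highest.

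ATF4, the central transcription factor of the integrated stress response, differed among the si-KRT7 libraries. It was at 467, 460 and 504 CPM in si-Control replicates 1, 2 and 3, and at 387, 495 and 392 CPM in si-KRT7 replicates 1, 2 and 3. Replicates 1 and 3 of si-KRT7 were below every si-Control library, and replicate 2 lay within their range. With all 6 libraries the log2 fold change was -0.17 (SE 0.11, adjusted p = 0.436 in edgeR). Without si-KRT7 replicate 2 it was -0.30 (SE 0.04, adjusted p = 4.98e-07 in edgeR).

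DDIT3 encodes CHOP, a transcription factor downstream of ATF4 that is tied to cell death under lasting ER stress. Its counts were 322, 366 and 346 in si-Control and 331, 350 and 250 in si-KRT7 replicates 1, 2 and 3. On the CPM scale these were 9.33, 10.1 and 10.996 against 8.91, 12.7 and 8.11. The highest and the lowest of the 6 libraries were thus both si-KRT7 libraries, and the groups overlapped. For DDIT3 the log2 fold change was -0.04, with a 95% interval from -0.44 to 0.37 (adjusted p = 0.939 in edgeR), and its sign was positive without si-Control replicate 3 (0.02), si-KRT7 replicate 1 (0.03) or si-KRT7 replicate 3 (0.09). Without si-KRT7 replicate 2 it was -0.25 (adjusted p = 0.0907 in edgeR).

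TRIB3 encodes a pseudokinase that is induced by ATF4 and DDIT3 and restrains AKT signaling and ATF4 itself. It was at 31.2, 28.0 and 30.3 CPM in the si-Control libraries and at 30.5, 44.5 and 31.4 CPM in si-KRT7 replicates 1, 2 and 3. Replicate 2 was the highest of all 6, at 149% of the si-Control mean, against 102% and 105% in si-KRT7 replicates 1 and 3, so the groups overlapped. The log2 fold change of 0.25 (SE 0.15, adjusted p = 0.421 in edgeR) became 0.05 without that library (95% interval -0.09 to 0.19, adjusted p = 0.603 in edgeR).

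CHAC1 encodes an enzyme that degrades glutathione and is among the genes most sensitive to ATF4. Its counts were 141, 164 and 146 in si-Control replicates 1, 2 and 3, and 82, 101 and 71 in si-KRT7 replicates 1, 2 and 3. On the CPM scale every si-KRT7 library lay below every si-Control library, at 49.96%, 83.1% and 52.1% of the si-Control mean. Its level in replicate 2 was 1.63 times the mean of replicates 1 and 3, the largest such ratio among the 10 genes. For CHAC1 the log2 fold change was -0.70 (SE 0.22, adjusted p = 0.140 in edgeR) and -0.97 without replicate 2 (SE 0.19, adjusted p = 1.92e-04 in edgeR).

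ASNS, asparagine synthetase, is a classic ATF4 target of the amino acid response, and few of its transcripts were read in these cells. It had 30, 26 and 23 counts in the si-Control libraries and 18, 14 and 11 in the si-KRT7 libraries. The groups did not overlap, with 0.869, 0.718 and 0.731 CPM against 0.485, 0.509 and 0.357 CPM. This gave a log2 fold change of -0.77 with a 95% interval from -1.49 to -0.06 (adjusted p = 0.238 in edgeR). Counting error alone came to 22.2% of its mean, so its size is poorly determined at this depth. Without si-KRT7 replicate 2 the log2 fold change was -0.86 (adjusted p = 0.137 in edgeR).

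DDIT4 and SESN2 encode inhibitors of mTORC1, the kinase complex that couples nutrients to growth. DDIT4 stood at 291.0, 295.3 and 300.5 CPM in the si-Control libraries and at 256.1, 290.9 and 260.7 CPM in si-KRT7 replicates 1, 2 and 3. The groups did not overlap, although si-KRT7 replicate 2 lay only just under the lowest si-Control library. The log2 fold change of DDIT4 was -0.13 (SE 0.08, adjusted p = 0.382 in edgeR) and -0.20 without si-KRT7 replicate 2 (SE 0.03, adjusted p = 2.96e-05 in edgeR). SESN2, which also senses leucine, was at 28.5, 29.5 and 29.8 CPM in si-Control and at 28.4, 29.6 and 25.3 CPM in si-KRT7 libraries. These overlapped, and the fold of 0.948 had a 95% interval from 0.817 to 1.10 (adjusted p = 0.713 in edgeR). Without si-KRT7 replicate 2 the log2 fold change of SESN2 was -0.13 (adjusted p = 0.169 in edgeR).

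**Figure D3:**
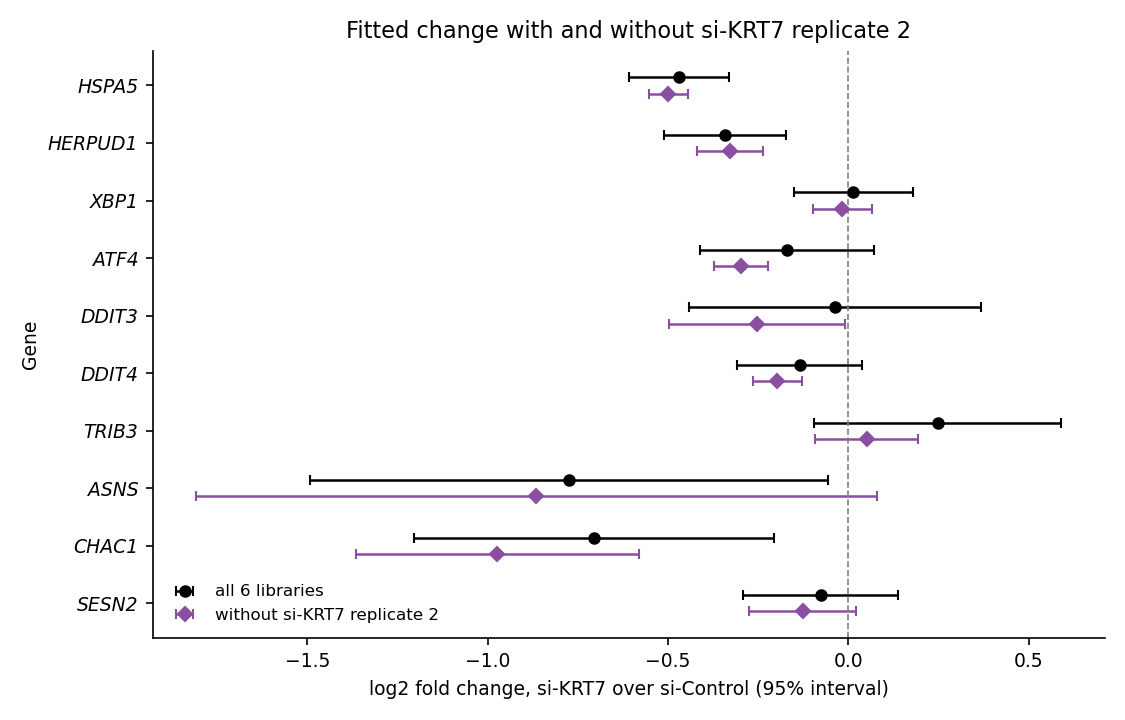
Log2 fold change of each gene, si-KRT7 over si-Control, with its 95% interval from edgeR's quasi-likelihood fit, from all 6 libraries (black circles) and without si-KRT7 replicate 2 (purple diamonds). HSPA5 and HERPUD1 hardly moved between the fits (-0.47 and -0.50, -0.34 and -0.33), whereas ATF4 went from -0.17 to -0.30 and TRIB3 from 0.25 to 0.05.

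Without si-KRT7 replicate 2, 5 of the 10 genes passed an adjusted p under 0.05 in edgeR. They were HSPA5, HERPUD1, ATF4, DDIT4 and CHAC1, and all 5 were lower. In that fit 42.9% of the 16202 genes tested passed, with 22.0% lower and 20.9% higher, so the share of members that passed was near the background, while all that passed were lower. The median log2 fold change was -0.28 over the members and -0.01 over all genes tested. TRIB3 was the only member with a positive log2 fold change there, and XBP1 had -0.02 (adjusted p = 0.781 in edgeR).

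With all 6 libraries, the groups did not overlap in 5 of the 10 genes, HSPA5, HERPUD1, DDIT4, ASNS and CHAC1, and each was lower in si-KRT7 cells. Over all genes tested, 24.4% had no overlap and 13.0% had none with si-KRT7 lower. When si-KRT7 replicate 2 was left out, ATF4, DDIT3 and SESN2 joined them, which made 8 of the 10 genes, all lower, against 61.5% of all genes without overlap and 31.2% lower. In exact two-sided permutation tests of all 6 libraries, the 5 genes without overlap had p = 0.1 and the other 5 had p between 0.2 and 0.9.

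**Figure D4:**
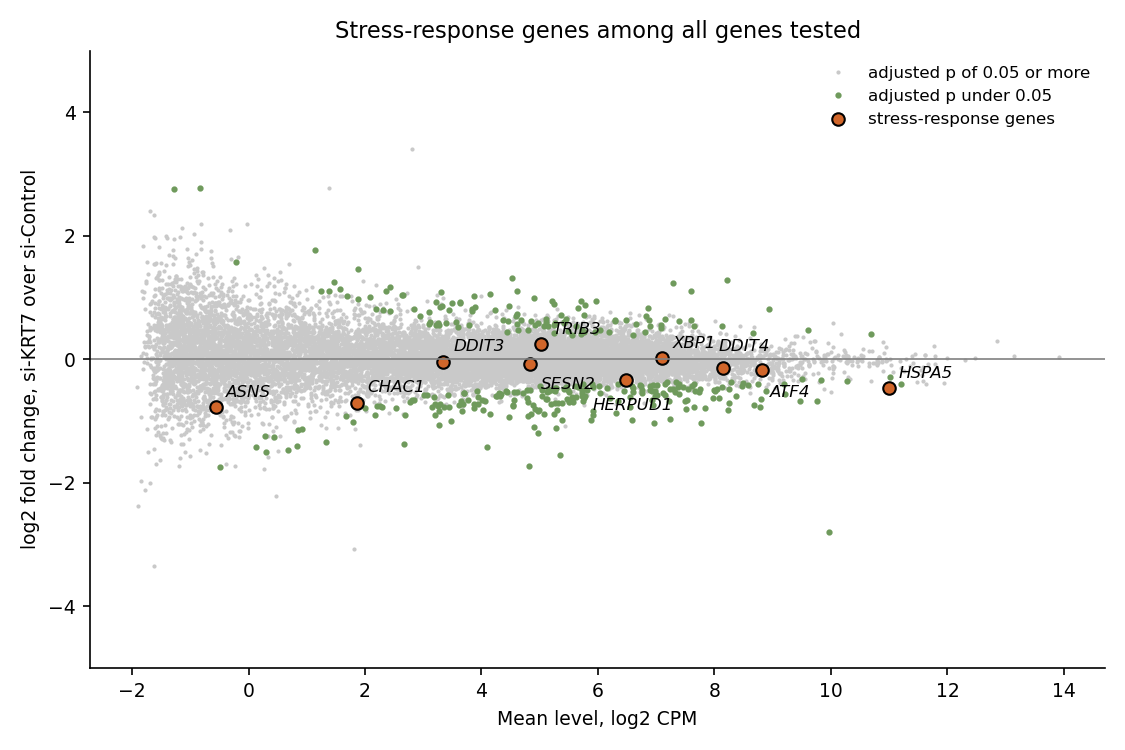
Mean level (log2 CPM) against log2 fold change, si-KRT7 over si-Control, for the 15736 genes tested; green points had an adjusted p under 0.05 in edgeR, and the stress-response genes are drawn in orange with their names. HSPA5 lay at the right of the cloud at a log2 fold change of -0.47, and ASNS, at the left, lay where the cloud of all genes is wide.

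The si-KRT7 libraries differed among themselves more in some of the genes than in others. In 9 of the 10 genes replicate 2 was above both replicates 1 and 3, where 44.0% of all genes tested were so, and HERPUD1 was the exception. Its excess over the mean of replicates 1 and 3 was 1.05-fold in HSPA5, 1.06-fold in XBP1, 1.10-fold in SESN2, 1.13-fold in DDIT4 and 1.21-fold in ASNS. It was larger in ATF4 (1.27-fold), TRIB3 (1.44-fold), DDIT3 (1.495-fold) and CHAC1 (1.63-fold). In 3 members (XBP1, DDIT3 and TRIB3) replicate 2 was the highest of the 6 libraries, near the 27.6% of all genes in which it was. These are values of 1 library, with no test, and replicate 2 also had the smallest total of the 6 libraries (28208896 counts), whose part in them was not tested.

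Ratios between members within a library do not depend on how libraries are scaled. They are ratios of counts and not of molecules, because gene length was not taken into account, and they were chosen after the levels were seen, so no test was made. For every 100 counts of ATF4, HSPA5 had 503, 509 and 471 counts in si-Control replicates 1, 2 and 3, and 429, 357 and 430 in those of si-KRT7. The chaperone was thus lower relative to ATF4 in every si-KRT7 library, and lowest in replicate 2. TRIB3 had 6.66, 6.08 and 6.01 counts for every 100 of ATF4 in si-Control and 7.89, 8.99 and 8.02 in si-KRT7 libraries, higher in all 3. For CHAC1 these were 0.874, 0.985 and 0.920 in si-Control and 0.571, 0.743 and 0.589 in si-KRT7 libraries, lower in all 3. CHAC1 had 43.8, 44.8 and 42.2 counts for every 100 of DDIT3 in si-Control and 24.8, 28.9 and 28.4 in si-KRT7. Although CHAC1 and DDIT3 were both highest among si-KRT7 libraries in replicate 2, their ratio there lay close to that of replicates 1 and 3 and well below every si-Control library. The ratio of DDIT3 to ATF4 overlapped between groups, with 1.996, 2.20 and 2.18 counts for every 100 in si-Control and 2.30, 2.57 and 2.07 in si-KRT7, as did that of DDIT4 to ATF4.

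**Figure D5:**
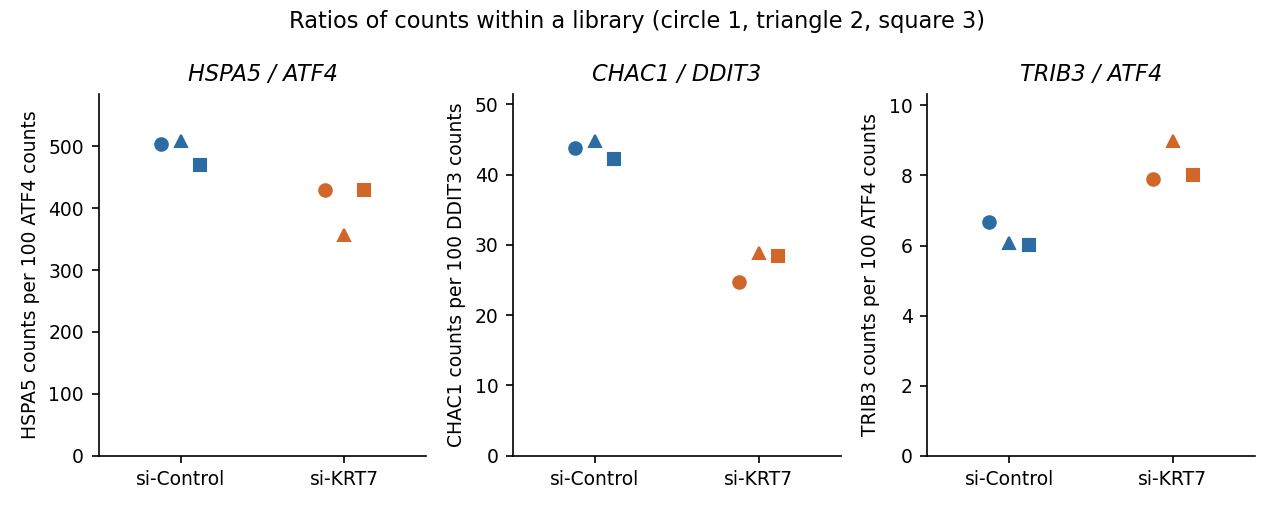
Ratios of counts within each library for HSPA5 to ATF4, CHAC1 to DDIT3 and TRIB3 to ATF4, by group, with the mark giving the replicate; each vertical axis starts at 0. The groups did not overlap in these 3 ratios, and CHAC1 to DDIT3 lay between 24.8 and 28.9 counts for every 100 in si-KRT7 against 42.2 to 44.8 in si-Control libraries. The ratios were chosen after the levels were seen, and those of DDIT3 and DDIT4 to ATF4, not drawn, overlapped between groups. How often ratios of other gene pairs separate was not computed.

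The spread among si-KRT7 libraries came largely from replicate 2 in ATF4, CHAC1, DDIT3, TRIB3, DDIT4 and HSPA5. The coefficient of variation among si-Control libraries was 0.648% for HSPA5, 1.499% for HERPUD1 and 4.95% for ATF4. Among si-KRT7 libraries it was 3.18%, 3.29% and 14.4% for the same genes, and 30.0% for CHAC1, 24.9% for DDIT3 and 22.1% for TRIB3. Between si-KRT7 replicates 1 and 3 alone it was 0.858% for ATF4, 3.04% for CHAC1, 6.62% for DDIT3, 2.02% for TRIB3 and 0.932% for HSPA5. For HERPUD1 it was 3.44%, no lower than among all 3. DDIT4 had 7.01% among the 3 si-KRT7 libraries and 1.26% between replicates 1 and 3. Counting error, computed from the mean of the 6 counts, was 5.53% for DDIT3, 3.07% for TRIB3 and 9.23% for CHAC1, which is below the spread of their 3 si-KRT7 libraries but, for CHAC1 and TRIB3, above that of replicates 1 and 3.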

How the data were processed

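The deposited table holds raw read counts, as whole numbers, for each gene in 6 libraries of CFPAC-1 cells. Their processing notes name STAR 2.7.11b and GRCm39, a mouse build, and the labels name the mouse, whereas all 30543 identifiers are human Ensembl identifiers. The counting tool and annotation are not given in the sources used here. Columns were matched to libraries by group and replicate number in the titles.

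The main test was edgeR 4.0.16 in R 4.3.3 (filterByExpr, TMM, glmQLFit, glmQLFTest), with Benjamini-Hochberg adjustment over all 15736 genes that passed the filter. A call needed an adjusted p under 0.05, and a second call also an absolute log2 fold change above 1. Standard errors were derived from the F statistic. Tests were tried on simulated counts with changes larger than those fitted for the members, a common spread and no library standing apart. That trial therefore does not show how the tests perform on small changes or with a library such as si-KRT7 replicate 2. Alternatives used DESeq2 1.42.0 and limma 3.58.1, other filters and scalings, a replicate block and each library left out.

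The members and lists were chosen with earlier results of these data known. All members were named whatever their values. Symbols came with the member list. Of the identifiers, 0 matched the mouse gene tables used here, so KRT7, cell type markers, other pathway genes, genome positions and sequences were not analysed here. Within groups, the mean chi-square per gene of a pair of libraries was at least 3.71, above sampling noise, so no library was a second sequencing of another. This does not tell separate transfections from separate preparations of the same RNA.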

Additional observations from a re-analysis of the deposited data

How the results depend on the processing

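The number of the 10 genes with an adjusted p under 0.05 was 1 in the edgeR fit of all libraries, where 325 of 15736 genes passed. It was 3 in the DESeq2 Wald test (HSPA5, HERPUD1, CHAC1), where 1148 of 15736 genes passed. In limma-voom with quality weights it was 6 (HSPA5, HERPUD1, ATF4, DDIT4, ASNS, CHAC1), where 6858 of 15736 genes passed. Without a filter on counts it was 3 (HSPA5, HERPUD1, CHAC1), where 1347 of 30543 genes passed. It was 0 with the replicate block, where 76 of 15736 genes passed and HSPA5 had an adjusted p of 0.0736 in edgeR. With each library left out in turn it ran from 0 to 5, with 5 without si-KRT7 replicate 2, where 6944 of 16202 genes passed. It was 0 without si-Control replicate 1, 2 or 3 or si-KRT7 replicate 3, where 6, 6, 10 and 36 of all genes passed. Without si-KRT7 replicate 1 it was 1, HSPA5, with 87 of all genes. The number was also 1, HSPA5, with limma-voom, the robust fit, a minimum of 10 counts in every library, library sizes alone and size factors from DESeq2. In those fits, from 294 to 334 of all genes passed. The number of the 10 genes whose groups did not overlap, 5 with all libraries, was 8 without si-KRT7 replicate 2, a count added after seeing the data. None of the 10 genes passed both limits in any of the 15 alternatives. HSPA5 kept its sign in all 15. XBP1 had a log2 fold change of -0.00015 with quality weights, and -0.016 to 0.042 with a library left out. DDIT3 ran from -0.25 to 0.087 with a library left out. The other 8 genes kept their sign throughout. The causes were not tested. Libraries with the same replicate number did not deviate from their groups in a shared way (correlations of 0.0520, -0.0798 and -0.0728). Whether such libraries were prepared together cannot be told from these values, which rest on 3 libraries per group, and the titles give only replicate numbers. The replicate block lowered the count over all genes from 325 to 76. No scaling moved the median log2 fold change of all genes by over 0.1. Alternatives planned for KRT7 and other pathway genes were not run, because identifiers were not paired with symbols. Depth limits ASNS, with 11 to 30 counts per library, and to a lesser degree CHAC1.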

Other observations

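HERPUD1 had 4.21, 4.22 and 4.28 counts for every 100 of HSPA5 in the si-Control libraries and 4.92, 4.35 and 4.62 in si-KRT7 replicates 1, 2 and 3, so that this ratio was higher in all 3 si-KRT7 libraries. In replicate 2 the ratio lay only just above the highest si-Control library, and counting error of HERPUD1 alone was 1.84% of its mean. The separation of that library is therefore not clear of counting error. The ratio was chosen after the levels were seen, and no test was made on it.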
